A study of Mus musculus with 16 samples.

Results

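The genes described here encode the subunits and assembly factors of the mitochondrial respiratory chain and of ATP synthase. They were all genes whose single symbol in the array annotation began with Nduf, Sdha, Sdhb, Sdhc, Sdhd, Uqcr, Cox and a digit, Cycs or Atp5. This gave 66 of the 7114 named genes on the array, read by 84 probes. Complex I had 27 of them, complex II 4, complex III 5, cytochrome c 1, complex IV 13 and complex V, the ATP synthase, 16. Ndufs5-ps, counted under complex I, is a transcribed pseudogene.

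Total RNA of mouse cells that the labels call WT and M833 was hybridised to 16 two-colour arrays, 8 for each cell type, each against one common reference RNA. MEFs, which commonly stands for mouse embryonic fibroblasts, appears in the series title together with Met mutations. The labels used here do not say what M833 stands for, which mutation it carries, whether either group came from 1 line or several, or what the reference was made of. For each cell type 4 arrays carried the sample in Cy5 and 4 carried it in Cy3, and replicates 1 to 4 below are the Cy5 arrays and 5 to 8 the Cy3 arrays. Whether arrays of a cell type hold RNA of different cultures is not stated in the labels, and p-values below therefore cover the scatter among arrays only, possibly a technical one. For arrays there is no count behind a value, and their number limits the precision.

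Complexes I to IV pass electrons from NADH and succinate to oxygen in the inner mitochondrial membrane and, except for complex II, pump protons across it. Complex V uses the returning protons to make ATP. Most of the subunits are encoded in the nucleus, and the symbols searched cover only these, while a core of complexes I, III, IV and V is made from mitochondrial DNA. Nuclear respiratory factor 1 (NRF1) and the ETS family member GABP (NRF2) are known regulators of many of these nuclear genes.

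The 250 bases before the annotated start were available in RefSeq (mouse build GRCm38.p6) for 56 of the 66 genes, and were searched on both strands for the NRF1 motif (GCGCA, any base, then GCGC), for its palindromic form with T as that base, which is contained in it, and for the ETS motif CCGGAAG. The NRF1 motif was found in 9 of the 56 genes (16.1%), against 4.23% of 27025 genes with a window of the same length. The palindromic form was found in 3 of them (5.36%), against 0.877%, and the ETS motif in 16 (28.6%), against 7.83%. The 27025 genes were not limited to those on the array and were not matched for base composition. Windows are printed here for 6 genes, the 4 genes whose difference between the cell types held under the stricter test described below (Cox7a2l, Ndufv3, Atp5g3 and Sdhaf2) and Sdhd and Cox6a1, which held both motifs and were among the genes that differed under the first test. Each runs 5′ to 3′ in the direction of the gene and ends at the base before the start, in lower case, with matches in capitals. GCGC at both ends of a capital run marks NRF1, and CCGGAAG or its reverse complement CTTCCGG marks ETS.
Cox7a2l, chr17:83514334-83514583, minus strand: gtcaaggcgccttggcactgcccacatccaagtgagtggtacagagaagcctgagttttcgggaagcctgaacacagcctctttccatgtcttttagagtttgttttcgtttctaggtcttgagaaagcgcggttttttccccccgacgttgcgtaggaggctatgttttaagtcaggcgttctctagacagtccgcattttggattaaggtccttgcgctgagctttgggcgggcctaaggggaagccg
Ndufv3, chr17:31519865-31520114, plus strand: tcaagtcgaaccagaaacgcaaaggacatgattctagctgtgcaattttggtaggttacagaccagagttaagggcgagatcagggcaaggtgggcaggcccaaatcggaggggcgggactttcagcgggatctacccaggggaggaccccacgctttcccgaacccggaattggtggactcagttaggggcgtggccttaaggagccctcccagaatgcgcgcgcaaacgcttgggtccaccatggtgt
Atp5g3, chr2:73911327-73911576, minus strand: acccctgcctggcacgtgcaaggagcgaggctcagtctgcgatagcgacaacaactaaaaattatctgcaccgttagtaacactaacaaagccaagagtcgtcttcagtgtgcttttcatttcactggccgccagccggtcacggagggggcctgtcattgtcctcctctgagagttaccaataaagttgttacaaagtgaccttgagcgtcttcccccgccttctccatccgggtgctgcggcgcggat
Sdhaf2, chr19:10525210-10525459, minus strand: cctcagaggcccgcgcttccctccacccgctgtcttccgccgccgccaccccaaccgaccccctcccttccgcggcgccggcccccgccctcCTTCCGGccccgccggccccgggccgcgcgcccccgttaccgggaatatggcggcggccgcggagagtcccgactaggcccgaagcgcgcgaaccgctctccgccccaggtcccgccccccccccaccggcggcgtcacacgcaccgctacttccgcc
Sdhd, chr9:50603850-50604099, minus strand: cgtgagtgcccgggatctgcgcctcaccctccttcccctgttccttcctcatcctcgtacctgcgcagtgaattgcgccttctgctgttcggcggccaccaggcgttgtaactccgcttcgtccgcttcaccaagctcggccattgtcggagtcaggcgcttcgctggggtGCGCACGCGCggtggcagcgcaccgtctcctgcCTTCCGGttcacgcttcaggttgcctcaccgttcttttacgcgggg
Cox6a1, chr5:115348959-115349208, minus strand: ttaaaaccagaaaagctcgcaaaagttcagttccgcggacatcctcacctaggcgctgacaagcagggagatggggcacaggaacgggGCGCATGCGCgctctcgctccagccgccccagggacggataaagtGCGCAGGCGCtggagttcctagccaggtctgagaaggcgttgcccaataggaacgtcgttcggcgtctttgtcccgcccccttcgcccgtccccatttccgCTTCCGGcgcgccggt
Of the genes in the stricter group only Sdhaf2 held a match, to the ETS motif, and the windows of Cox7a2l, Ndufv3 and Atp5g3 held none of the searched letters. A match describes these letters and is not a binding site, and a window without one says nothing about the factor. The genes with the NRF1 motif were Atp5c1, Atp5h, Atp5k, Cox6a1, Ndufa8, Ndufaf4, Ndufs6, Sdha and Sdhd.

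Against the common reference, most respiratory genes were low in both cell types. Values are log2 ratios of sample over reference after adjustment for dye, so that a value below 0 means less of that transcript than in the reference, and they do not compare the amounts of different genes. This direction is likely and not stated, and if it ran the other way every sign below would turn. In these bulk samples fewer cells of a type and less RNA per cell cannot be told apart. Of the 66 genes, 58 (87.9%) had a mean below 0 in both WT and M833, against 39.6% of all 12761 features and 43.5% of named genes. In 49 of the 66 (74.2%) each of the 16 arrays was below 0, against 22.8% of all features. The median over the genes was -0.55 in WT and -0.52 in M833, while that of all features was 0.05 and 0.02. The count was 58 as well after each array was centred on its median, where the medians lay only between -0.02 and 0.07. It was also 58 after the log ratios were scaled between arrays. That scaling cannot change the sign of any array value, so neither count is a strong check.

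**Figure D1:**
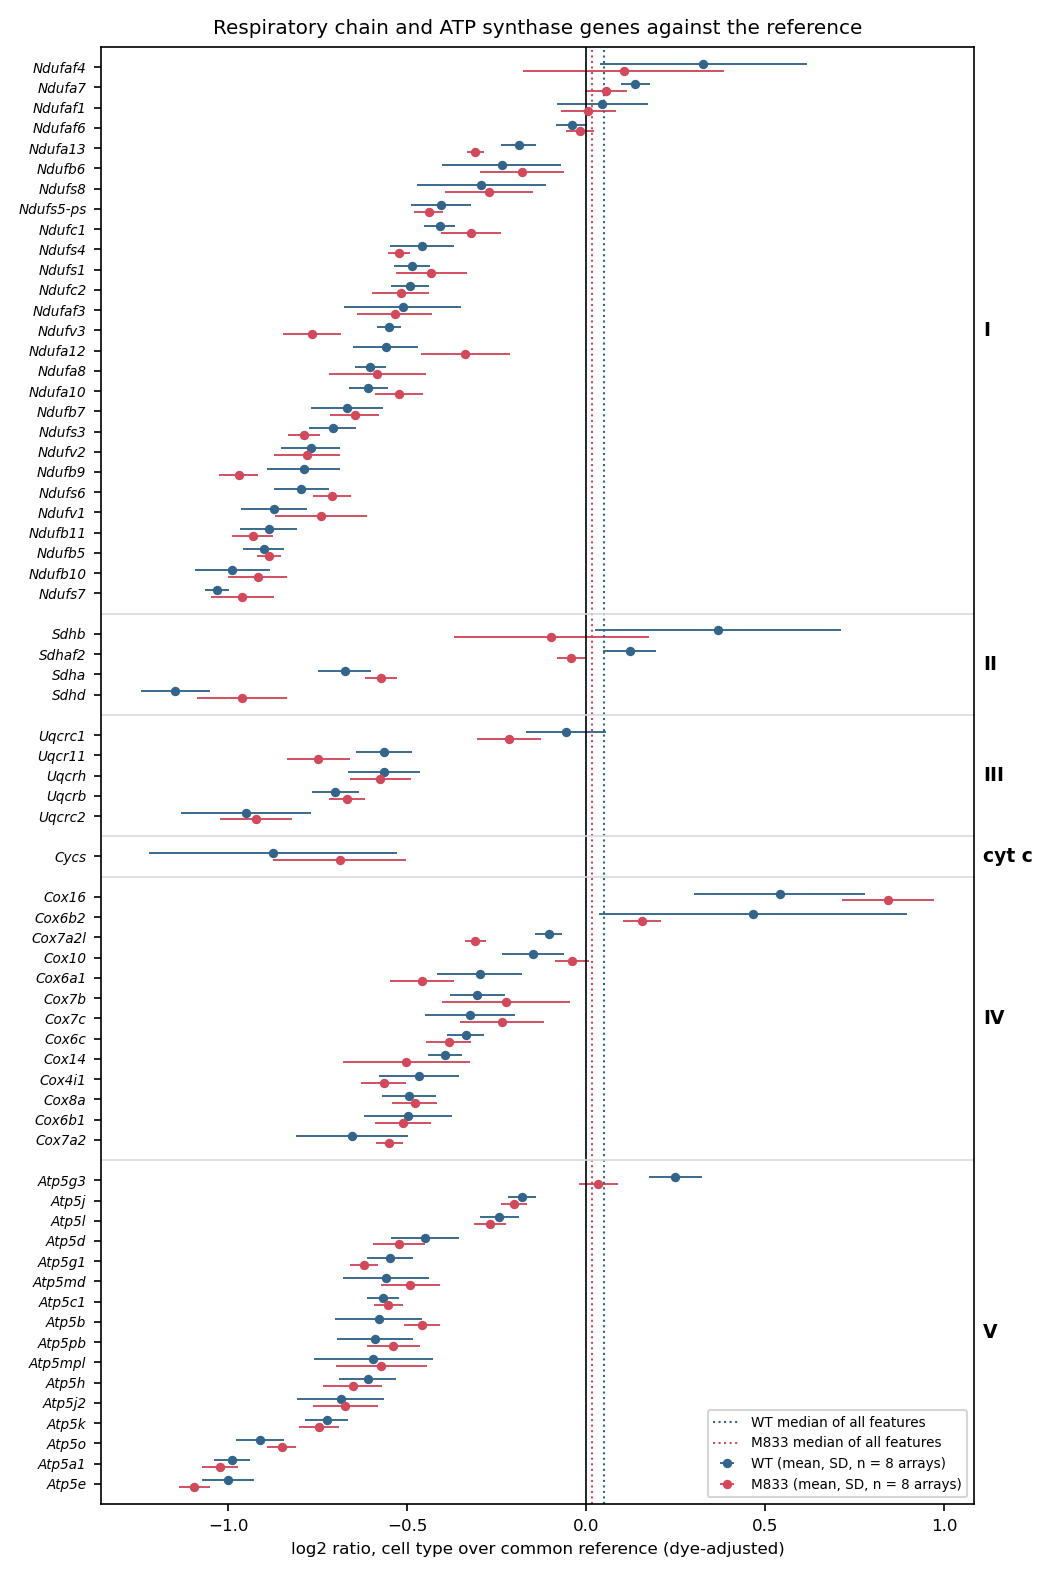
Mean log2 ratio of each gene over the common reference, adjusted for dye, in WT (blue) and M833 (red), with bars of 1 SD over 8 arrays, genes sorted within complexes I to V by their WT mean. Most points lie left of 0 and left of the dotted medians of all features, and the WT and M833 points of a gene lie close together.

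The complex medians in WT were -0.55 for complex I, -0.28 for II, -0.57 for III, -0.33 for IV and -0.58 for V, and in M833 -0.52, -0.34, -0.67, -0.38 and -0.56. Differences between complexes were not tested. The 6 core subunits of complex I, which hold its flavin and iron-sulfur centres or lie beside them (Ndufs1, Ndufs3, Ndufs7, Ndufs8, Ndufv1 and Ndufv2), had median ratios of -0.74 in WT and -0.76 in M833 and were below the reference on every array. Ndufs7, which holds the last iron-sulfur cluster before the quinone, was the lowest gene of complex I in WT, at -1.03 ± 0.03 (SD, n = 8), and stood at -0.96 ± 0.09 in M833. Ndufb9, an accessory subunit of the membrane arm, was the lowest in M833, at -0.97 ± 0.06. The complex I assembly factors Ndufaf1, Ndufaf3, Ndufaf4 and Ndufaf6, which help to build the enzyme and are not part of it, had medians of 0.00 in WT and -0.01 in M833. Of these, Ndufaf4 had the highest mean of complex I, at 0.33 ± 0.29 in WT and 0.11 ± 0.28 in M833, and Ndufaf3 the lowest of the assembly factors, at -0.51 ± 0.16 and -0.54 ± 0.10.

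Among the 16 accessory subunits of complex I, 15 had means below 0 in WT and in M833. Ndufb10 was the lowest of them in WT, at -0.99 ± 0.11, and Ndufa7 was the highest in both, at 0.14 ± 0.04 in WT and 0.05 ± 0.06 in M833. Ndufs5-ps stood at -0.40 ± 0.08 in WT and -0.44 ± 0.04 in M833.

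In complex II the membrane anchor Sdhd had the lowest WT mean of all 66 genes, -1.15 ± 0.10, while the iron-sulfur subunit Sdhb stood at 0.37 ± 0.34. In complex III all 5 genes had means below 0 in WT and in M833. The lowest was Uqcrc2, a core protein (-0.95 ± 0.18 in WT, -0.92 ± 0.10 in M833). The highest was the other core protein Uqcrc1 (-0.06 ± 0.11 in WT, -0.21 ± 0.09 in M833). Its mean joined a probe above the reference, at 0.43 in WT and 0.12 in M833, with one at -0.55 in both. Cycs, cytochrome c itself, which carries electrons from complex III to IV, was at -0.88 ± 0.35 in WT and -0.69 ± 0.19 in M833.

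In complex IV, cytochrome c oxidase, all 8 ubiquitous subunits on the array (Cox4i1, Cox6a1, Cox6b1, Cox6c, Cox7a2, Cox7b, Cox7c and Cox8a) stood below the reference in WT and in M833. Cox7a2 was the lowest in WT, at -0.65 ± 0.16, and Cox4i1 the lowest in M833, at -0.57 ± 0.06. Cox7b was the highest of these subunits in M833, at -0.22 ± 0.18. Cox16, an assembly factor that acts in copper loading of the enzyme, had the highest mean of all 66 genes, at 0.54 ± 0.24 in WT and 0.84 ± 0.13 in M833. Cox6b2, the isoform known from testis, was also above the reference, at 0.46 ± 0.43 in WT and 0.16 ± 0.05 in M833.

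In complex V, 15 of 16 genes stood below the reference in WT and in M833. The F1 epsilon subunit gene Atp5e was the lowest, at -1.0 ± 0.07 in WT and -1.10 ± 0.04 in M833, and Atp5g3, one of the genes for the proton-carrying c ring, was the highest, at 0.25 ± 0.07 and 0.03 ± 0.06. Among the stalk genes, which hold the F1 and Fo parts together, Atp5o was the lowest in WT, at -0.91 ± 0.07, and Atp5j the highest, at -0.18 ± 0.04. Atp5k, a small Fo subunit, stood at -0.73 ± 0.06 in WT and -0.75 ± 0.06 in M833.

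Between the cell types the differences were small and ran both ways. M833 was compared with WT in one limma fit over all 16 arrays and 12761 features, with terms for cell type and dye, and genes with a Benjamini-Hochberg adjusted p under 0.05 were called. Of the 66 genes 5 were higher in M833, against 10.0% of all features, and 10 were lower, against 15.9%. The called share in either direction was 22.7%, against 25.9% of all features and 31.9% of named genes. The share among the respiratory genes was thus near that of all features and below that of named genes. Their median difference was -0.01 on the log2 scale, and that of all features -0.03. In 63 of 66 genes the difference was smaller than 0.25 in size, against 10746 of 12761 features. In 51 of the 66 the whole 95% confidence interval lay within 0.25 of 0, against 7421 features. The intervals take all 16 arrays as independent, and no such count was made with the array sets described below.

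**Figure D2:**
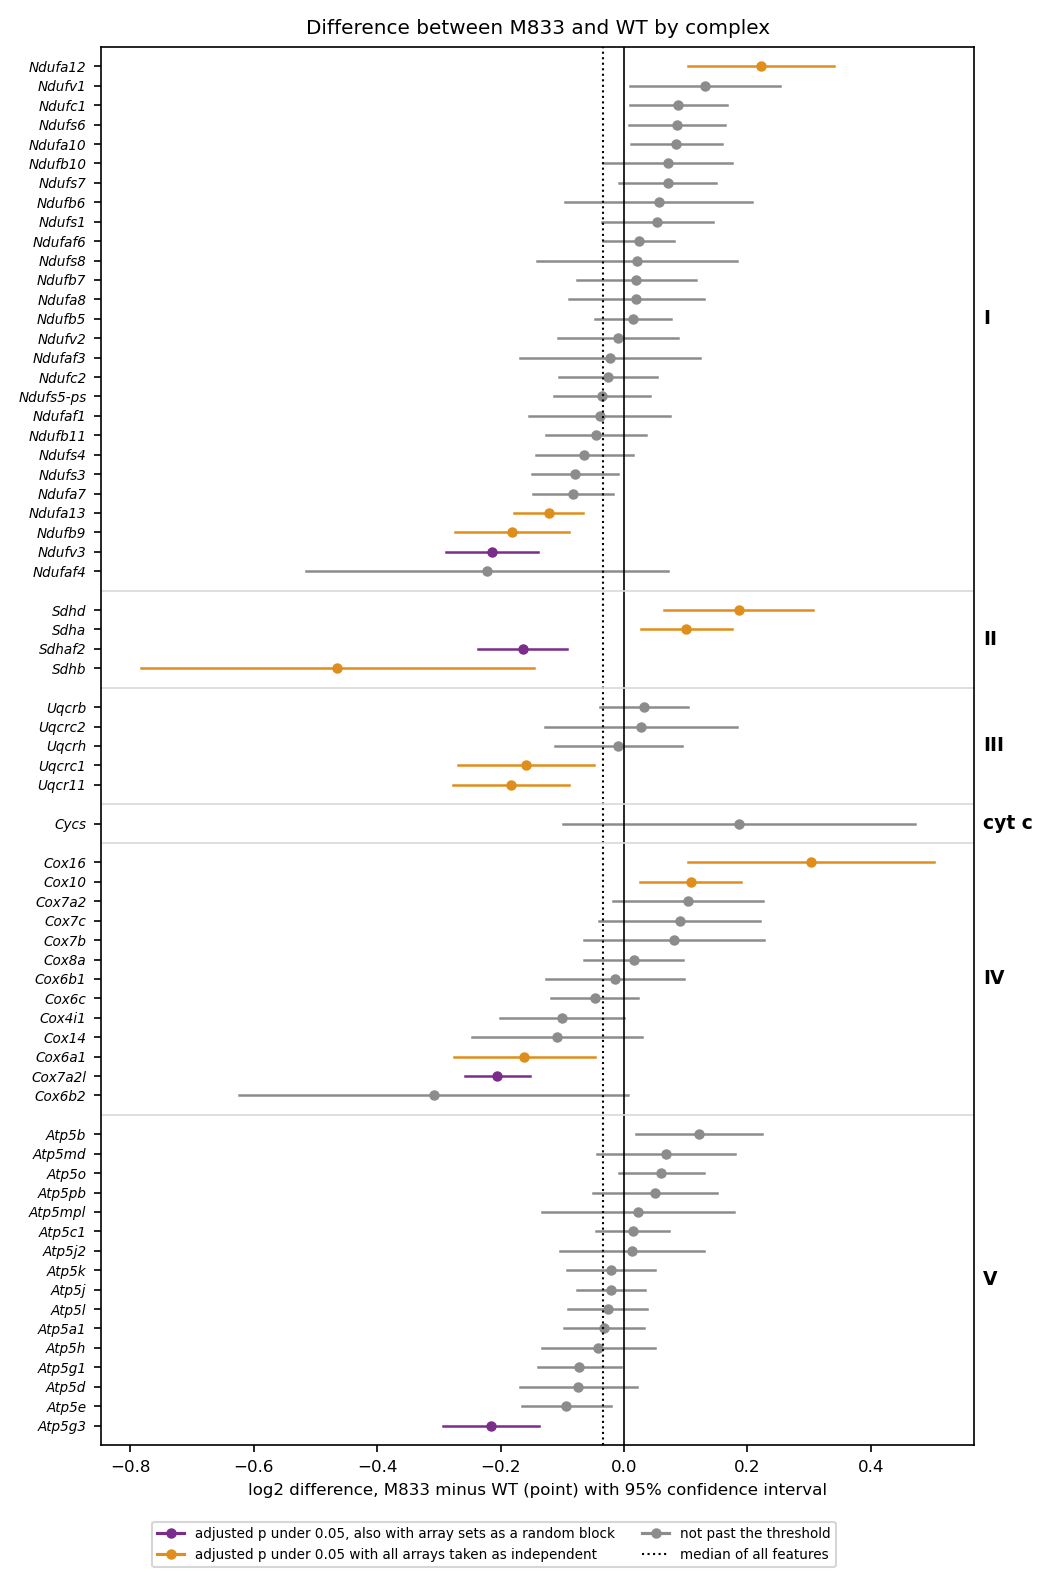
Fitted log2 difference of each gene, M833 minus WT, with its 95% confidence interval, sorted within complexes I to V; purple genes passed an adjusted p of 0.05 also with array sets as a random block, orange genes with all arrays taken as independent, and grey genes did not pass. In complex II all 4 genes are coloured, on both sides of 0, and in complex V 1 of 16 is. Of all features 25.9% were called with all arrays taken as independent.

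Earlier results of these data showed that replicates 1, 2, 5 and 6 of a cell type deviate together, as do replicates 3, 4, 7 and 8. The labels do not name these sets. With the sets as a random block (correlation 0.32), 0 of the 66 genes were higher, against 4.40% of all features, and 2 were higher at an unadjusted p under 0.05. Lower were 4, against 7.08%, namely Cox7a2l, Ndufv3, Atp5g3 and Sdhaf2. At an unadjusted p under 0.05, 10 of the 66 genes passed in either direction, against 2944 of 12761 features. When the log ratios were scaled to equal spread between arrays, 1 gene was higher, against 9.91% of all features in that fit, and 21 were lower, against 16.8%. The median difference was then -0.10, against -0.04 for all features, so the balance of directions depended on that scaling. Centring the arrays gave 7 higher, against 12.2%, and 9 lower, against 12.8%.

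Ranges and medians over arrays are given below as deposited, with both dyes together, while differences are adjusted for dye. Cox7a2l, which links complexes III and IV into supercomplexes, had the smallest adjusted p. In WT its log2 ratio ran from -0.16 to -0.03 with a median of -0.11, and in M833 from -0.36 to -0.26 with a median of -0.31. The highest M833 array was thus below the lowest WT array. The difference was -0.21 ± 0.02 (SE), 1.15-fold lower in M833 (limma, adjusted p = 2.13e-05, and 0.0013 with the block), and the 2 probes gave -0.23 and -0.18. It was called whichever single array or set of 4 arrays was left out. When the 4 arrays of a set were averaged into 1 value, 2 against 2, neither this gene nor any other of the 12761 features was called (1675 at an unadjusted p under 0.05).

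**Figure D3:**
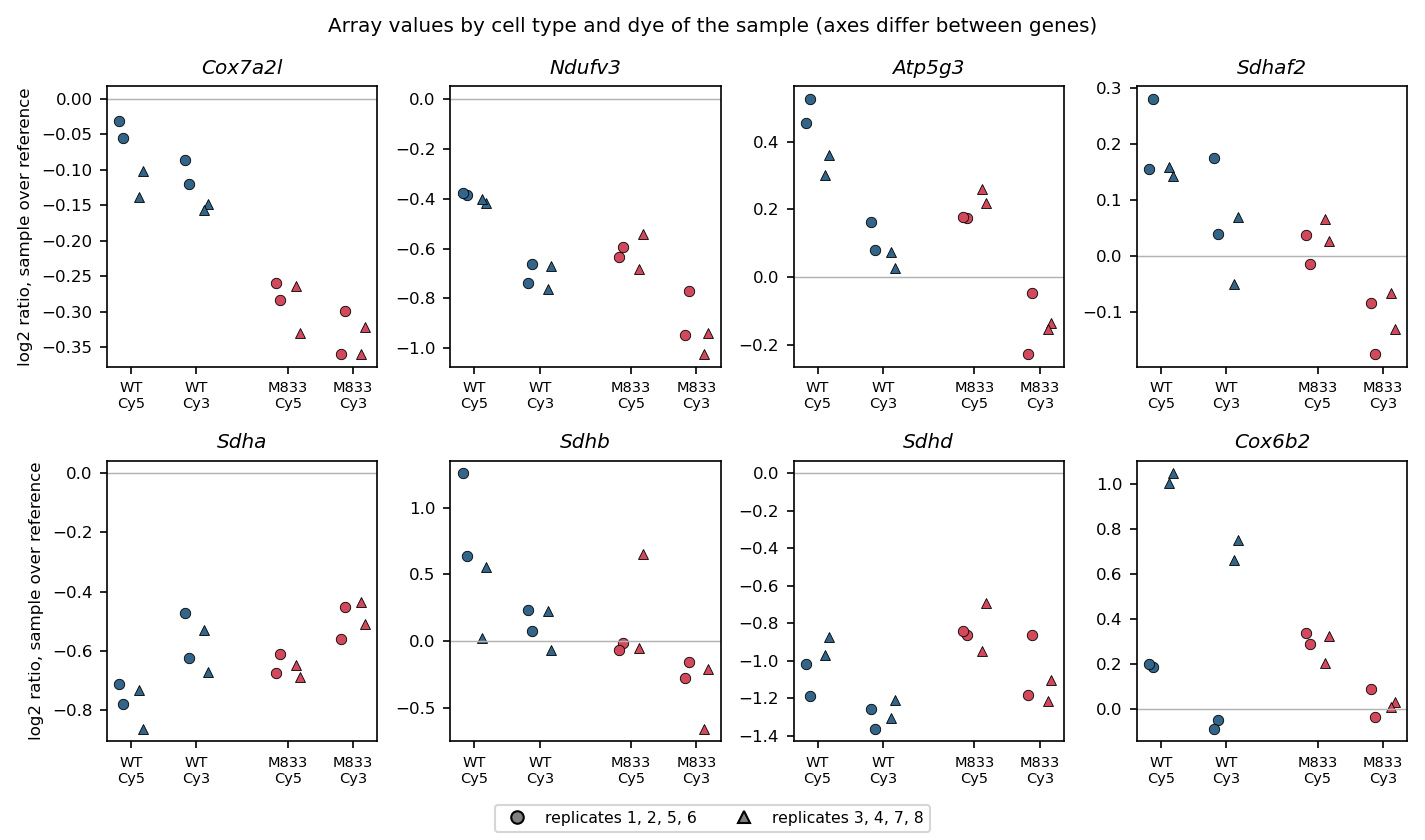
Log2 ratio of sample over reference on each array for 8 genes, by cell type and by the dye of the sample, with replicates 1, 2, 5 and 6 as circles and 3, 4, 7 and 8 as triangles; each panel has its own axis. In the Cox7a2l panel every M833 point is below every WT point, and in the Cox6b2 panel the WT circles and triangles stand apart.

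In complex I, 1 of 27 genes was higher in M833, 3 were lower and 23 were not called. The called share was 14.8%, against 25.9% of all features. None of the 6 core subunits was called by limma, and at an unadjusted p under 0.05 Ndufv1, at 0.13, and Ndufs3, at -0.08, passed. Of the 12761 features 4825 passed unadjusted. The 4 called genes are accessory subunits, which surround the core. Ndufv3, a small partner of the NADH-binding subunits, ran from -0.76 to -0.38 in WT, with a median of -0.54, and from -1.02 to -0.54 in M833, with a median of -0.73. The ranges overlapped across dyes, but within each dye all 4 M833 arrays were below all 4 WT arrays. The difference was -0.21 ± 0.03, 1.16-fold lower (limma, adjusted p = 0.000347, and 0.0196 with the block).

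Ndufb9 ran from -0.99 to -0.52 in WT, with a median of -0.80, and from -1.15 to -0.82 in M833, with a median of -0.996. Its difference was -0.18 ± 0.04 (limma, adjusted p = 0.0059, and 0.0508 with the block). Ndufa13, also known as GRIM-19, ran from -0.40 to -0.02 in WT, median -0.17, and from -0.46 to -0.14 in M833, median -0.31. Its difference was -0.12 ± 0.03 (limma, adjusted p = 0.00286, and 0.0751 with the block). For both genes M833 lay below WT within each dye, with overlap between the pooled ranges.

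Ndufa12 was the 1 complex I gene that was higher. It ran from -0.79 to -0.31 in WT, median -0.60, and from -0.49 to -0.14 in M833, median -0.34. The difference was 0.22 ± 0.06, 1.17-fold (limma, adjusted p = 0.00766, and 0.113 with the block), and it was 0.13 on the Cy5 arrays and 0.31 on the Cy3 arrays. M833 replicate 7 stood above the other M833 arrays for this gene. Ndufaf4 had a difference of the same size in the other direction, -0.22, but with an SE of 0.14 it was not called (limma, adjusted p = 0.26). The accessory subunits that were not called, Ndufa7, Ndufa8, Ndufa10, Ndufb5, Ndufb6, Ndufb7, Ndufb10, Ndufb11, Ndufc1, Ndufc2, Ndufs4 and Ndufs6, lay between -0.08 (Ndufa7) and 0.09 (Ndufc1). The other assembly factors lay between -0.04 (Ndufaf1) and 0.02 (Ndufaf6), and Ndufs5-ps was at -0.04.

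In complex II, succinate dehydrogenase, which is also an enzyme of the citrate cycle, all 4 genes on the array were called, 2 in each direction. Of all features 25.9% were called. Sdha, the flavin subunit, and Sdhd were higher in M833, while Sdhb and Sdhaf2 were lower. Sdhaf2, the factor that attaches the flavin to Sdha, ran from -0.05 to 0.28 in WT, median 0.15, and from -0.18 to 0.07 in M833, median -0.04. Within each dye the M833 arrays were below the WT arrays. The difference was -0.16 ± 0.03, 1.12-fold lower (limma, adjusted p = 0.00217, and 0.0496 with the block), and the probes gave -0.19 and -0.14. Without M833 replicates 1, 2, 5 and 6 the adjusted p was 0.0592.

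Sdhb had the largest fitted difference of the 66 genes, and 4.04% of all features had a larger one. It ran from -0.07 to 1.26 in WT, median 0.23, and from -0.66 to 0.65 in M833, median -0.11. The cell types overlapped, with WT replicate 2 far above the other WT arrays and M833 replicate 3 far above the other M833 arrays. The difference was -0.46 ± 0.15, 1.38-fold lower, with an interval from -0.78 to -0.15 (limma, adjusted p = 0.032, and 0.263 with the block). It was -0.28 (adjusted p = 0.188) without WT replicates 1, 2, 5 and 6 and -0.65 when replicates 3, 4, 7 and 8 of WT were left out instead. Leaving out any one of M833 replicates 1, 2, 4 and 8 or WT replicates 6 and 8 ended the call.

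Sdhd ran from -1.36 to -0.87 in WT, median -1.20, and from -1.21 to -0.69 in M833, median -0.91. Its difference was 0.19 ± 0.06, 1.14-fold higher (limma, adjusted p = 0.025, and 0.235 with the block). The ranges overlapped, and without WT replicates 1, 2, 5 and 6 the difference was 0.13 (adjusted p = 0.171). Leaving out M833 replicate 3 alone ended the call (adjusted p = 0.0504). Sdha ran from -0.86 to -0.47 in WT, median -0.69, and from -0.69 to -0.44 in M833, median -0.59. The difference was 0.10 ± 0.03, 1.07-fold higher (limma, adjusted p = 0.0438, and 0.306 with the block). After scaling between arrays it was -0.01, so the direction for Sdha flipped, and neither Sdha nor Sdhd was called there. The call for Sdha was lost in 11 of the 16 fits that leave out 1 array.

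In complex III, the cytochrome bc1 complex, 2 of 5 genes were lower, against 15.9% of all features. The other 3, Uqcrb, Uqcrc2 and Uqcrh, were not called, with differences from -0.01 to 0.03. Uqcr11, the smallest subunit of the complex, ran from -0.66 to -0.46 in WT, median -0.57, and from -0.83 to -0.55 in M833, median -0.78. The difference was -0.18 ± 0.04, 1.14-fold lower (limma, adjusted p = 0.00625, and 0.0715 with the block). Uqcrc1 ran from -0.39 to 0.32 in WT, median -0.07, and from -0.35 to -0.01 in M833, median -0.21. Its difference was -0.16 ± 0.05 (limma, adjusted p = 0.0348, and 0.292 with the block), and the cell types overlapped. The probes of Uqcrc1 did not share it: one gave -0.31 and the other -0.01, and their WT ratios were 0.43 and -0.55. Fitted by itself neither probe was called (limma, adjusted p = 0.0723 and 0.941), only their average. For that average the Cy5 arrays gave -0.29 and the Cy3 arrays -0.02. Its call was lost without any one of WT replicates 1, 2, 3 and 5 or M833 replicates 1, 2 and 4.

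Cycs differed by 0.19 ± 0.13 and was not called (limma, adjusted p = 0.332). Its arrays were widely spread, from -1.60 to -0.21 in WT and from -1.11 to -0.04 in M833, and its probes gave 0.05 and 0.32. Fitted by itself, the probe at 0.32 ± 0.11 was called (limma, adjusted p = 0.0364) and that at 0.05 ± 0.23 was not.

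In complex IV, 2 genes were higher, 2 lower and 9 not called. The called share was 30.8%, against 25.9% of all features and 31.9% of named genes. Apart from Cox7a2l, the other lower gene was Cox6a1, the widely expressed isoform of subunit VIa. It ran from -0.55 to -0.07 in WT, median -0.31, and from -0.66 to -0.21 in M833, median -0.44, with overlap. The difference was -0.16 ± 0.05 (limma, adjusted p = 0.037, and 0.204 with the block), and it lost the call in 11 of the 16 fits that leave out 1 array. The other 7 subunits were not called and lay between -0.10 (Cox4i1) and 0.10 (Cox7a2).

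Both higher genes of complex IV are assembly factors. Cox16 ran from 0.17 to 1.02 in WT, median 0.54, and from 0.59 to 1.19 in M833, median 0.77. The difference was 0.30 ± 0.09, 1.23-fold (limma, adjusted p = 0.0261, and 0.16 with the block). It rested on the WT set used, at 0.12 (adjusted p = 0.22) without WT replicates 1, 2, 5 and 6 and 0.49 without 3, 4, 7 and 8, and leaving out any one of M833 replicates 2 and 4 or WT replicates 5 and 6 ended the call. Cox10, which makes heme O on the way to the heme A of the enzyme, ran from -0.29 to -0.04 in WT, median -0.12, and from -0.08 to 0.08 in M833, median -0.05. Its difference of 0.11 ± 0.04 (limma, adjusted p = 0.0497, and 0.223 with the block) was called in only 4 of the 16 fits that leave out 1 array. Cox14, an assembly factor as well, differed by -0.11 ± 0.06 and was not called (adjusted p = 0.237).

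Cox6b2 had the second largest difference by size, -0.31 ± 0.15, but was not called (limma, adjusted p = 0.14). Its WT arrays fell apart by set, with means of 0.06 in replicates 1, 2, 5 and 6 and 0.87 in replicates 3, 4, 7 and 8, while the M833 sets were at 0.17 and 0.14. Without the first WT set the difference was -0.71 and without the second 0.09, both called, in opposite directions.

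In complex V, 1 of 16 genes (6.25%) was called, against 25.9% of all features. Atp5g3 ran from 0.03 to 0.53 in WT, median 0.23, and from -0.23 to 0.26 in M833, median 0.06. Within each dye the M833 arrays were below the WT arrays. The difference was -0.21 ± 0.04, 1.16-fold lower (limma, adjusted p = 0.000496, and 0.0147 with the block). Atp5g1, whose mature protein is the same c subunit, had probes at -0.19 and 0.04. Its mean difference of -0.07 ± 0.03 was not called (limma, adjusted p = 0.107). Fitted by itself, the probe at -0.19 was called (limma, adjusted p = 0.0016) and the other was not.

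The F1 genes Atp5a1, Atp5b, Atp5c1, Atp5d and Atp5e were not called, with differences from -0.09 (Atp5e) to 0.12 (Atp5b). The 3 probes of Atp5b gave 0.19, 0.11 and 0.06, and fitted by itself only the first was called (limma, adjusted p = 0.0024). Of all probes 10.9% were called higher and 15.8% lower in that fit. The stalk genes Atp5h, Atp5j, Atp5o and Atp5pb were not called either and lay between -0.04 and 0.06. The small Fo genes Atp5j2, Atp5k, Atp5l, Atp5md and Atp5mpl, also not called, lay between -0.03 (Atp5l) and 0.07 (Atp5md). After scaling between arrays 7 genes of complex V and 7 of complex I were lower, beside the 16.8% of all features in that fit, and 0 of either were higher, beside 9.91%. Apart from Atp5g1, the genes whose probes differed in sign were Uqcrb (-0.04 and 0.10) and Uqcrc2 (-0.01 and 0.06).

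The arrays of the cell types did not overlap in either dye for 6 of the 66 genes, all lower in M833, against 6.49% of all features. They were Atp5g3, Cox7a2l, Ndufa13, Ndufb9, Ndufv3 and Sdhaf2. In the higher direction it was 0 of the 66 genes, against 4.01%. With the means of the array sets, the M833 sets lay above the WT sets for 13 genes, against 18.2% of features, and below for 18, against 30.6%.

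The dye moved these genes more than the cell type did. The dye effect, the log2 ratio with the sample in Cy5 minus that with the sample in Cy3, had a median of 0.28 over the 66 genes, against 0.02 over all features. In 48 genes it was higher with Cy5 (limma, adjusted p under 0.05), against 22.7% of all features, and in 4 it was lower, against 18.5%. The 4 were Atp5a1, Atp5b, Atp5d and Sdha. Centring gave 46 and 4, and scaling between arrays 51 and 2. The dye effect was larger than the difference between cell types in 54 of 66 genes, against 7340 of 12761 features.

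The dye effect varied between kinds of gene. All 16 accessory subunits of complex I were higher with Cy5, and the 8 subunits of complex IV had a median of 0.47. It reached 0.84 in Cox6c, 0.82 in Cox7c and 0.82 in Atp5k, and 0.69 in Uqcrb and 0.68 in Ndufs4. It was near 0 in other subunits, such as Cox8a, at 0.02, and Uqcr11, at -0.02. The lowest were the F1 subunit genes Atp5a1, at -0.42, and Atp5d, at -0.31. The F1 genes had a median of -0.17, while the stalk and Fo genes had 0.36 and 0.42. Signal intensity, gene length and probe sequence were not analysed here.

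**Figure D4:**
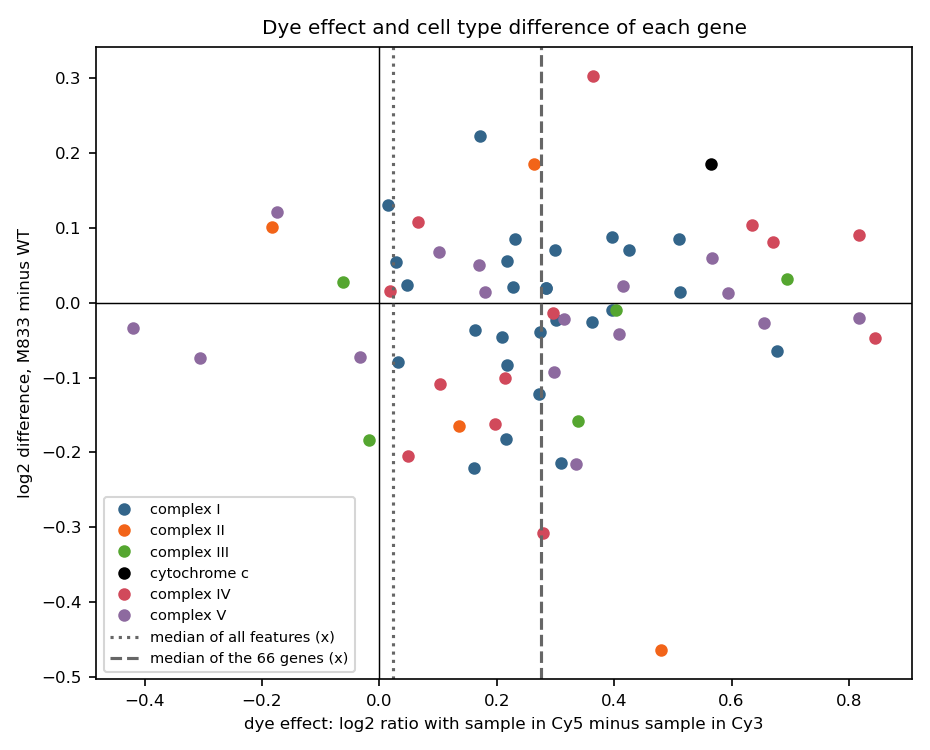
Each point is 1 of the 66 genes, coloured by complex, with the dye effect (log2 ratio with the sample in Cy5 minus Cy3) on the horizontal axis and the log2 difference M833 minus WT on the vertical axis. Most points lie right of the dotted median of all features at 0.02, with the dashed median of the 66 genes at 0.28, and the vertical spread is small beside the horizontal one.

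Both dyes were used on 4 arrays of each cell type, so the dye effect is balanced between them. The difference between cell types had the same sign in both dyes for 51 of 66 genes, against 9918 of 12761 features. For 0 genes was a dependence of the difference on the dye called by limma, as for 0.00% of all features. At an unadjusted p under 0.05 it was 1 gene, Uqcrc1, and 361 features, and the difference of Uqcrc1 was more negative on the Cy5 arrays.

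Arrays of one cell type also differed by set. The median gap between the sets was 0.10 in WT and 0.04 in M833, beside a median difference between cell types of 0.07 in size. In WT the gap was larger than the difference between cell types for 41 of the 66 genes, against 7654 of 12761 features. Replicates 3, 4, 7 and 8 of WT were above the other WT arrays in 14 of 16 genes of complex V and in 10 of 13 of complex IV, but in 12 of 27 of complex I and in 5590 of 12761 features. In M833 they were above in 7 of 16, 5 of 13 and 9 of 27. Within the Cy5 arrays, the array means over all 66 genes ran from -0.36 to -0.30 in WT and from -0.37 to -0.34 in M833, with 3 of 4 WT arrays above every M833 array. Within the Cy3 arrays they ran from -0.65 to -0.56 in WT and from -0.64 to -0.59 in M833, with the M833 arrays inside the WT range.

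Genes of neighbouring pathways give the surroundings of these results. Beside the counts of these lists, 10.0% of all features were higher and 15.9% lower. With the block these shares were 4.40% and 7.08%, and after scaling between arrays 9.91% and 16.8%. At an unadjusted p under 0.05, in either direction, 4825 of 12761 features passed in the first fit. With the block 2944 passed so, and after scaling 4865. Of 14 measured respiratory genes outside the rule, 1 was higher and 1 lower in M833. The higher one was Lrpprc, which stabilises mitochondrial messenger RNAs, at 0.23 ± 0.03 (limma, adjusted p = 6.18e-05, and 0.00442 with the block), and the lower one was Ttc19, a complex III factor, at -0.14 ± 0.04 (adjusted p = 0.0259, and 0.139 with the block). Of 18 genes of pyruvate oxidation and the citrate cycle, 4 were higher, Idh3a (0.26 ± 0.09), Ogdh (0.16 ± 0.04), Cs (0.15 ± 0.03) and Dlat (0.14 ± 0.05), and 1, Sucla2 (-0.13 ± 0.03), was lower. None of the 5 was called with the block, where 5 of the 18 were higher and 1 lower at an unadjusted p under 0.05, and scaling between arrays gave 0 higher and 7 lower.

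Of 14 genes of glycolysis 0 were higher by limma (1 at an unadjusted p under 0.05) and 3 were lower: Pdk1, the kinase that holds back pyruvate dehydrogenase (-0.36 ± 0.05), Ldhb (-0.25 ± 0.07) and Pgk1 (-0.08 ± 0.03). With the block Pdk1 was called, while Ldhb (limma, adjusted p = 0.122) and Pgk1 (0.229) were not. After scaling between arrays 0 of the 14 were higher (1 at an unadjusted p under 0.05) and 7 were lower. Of 21 genes of mitochondrial DNA maintenance and biogenesis 9 were higher and 1 lower, with a median difference of 0.13. Among them were the coactivator Pprc1 (0.38 ± 0.12), the matrix chaperonin Hspd1 (0.35 ± 0.06), Gabpb1, a subunit of GABP (0.23 ± 0.04), and Tfam, which packages mitochondrial DNA (0.19 ± 0.03). The lower one was Tfb1m (-0.30 ± 0.08). With the block 3 were higher, and after scaling between arrays 4 were higher and 1 lower.

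Markers of other states moved with the cell type. Beside the counts below, 10.0% of all features were higher and 15.9% lower in the same fit, and 4.40% and 7.08% with the block. Of 20 measured cell cycle genes 17 were higher in M833, and the array means of that list ran from -0.60 to -0.19 in WT and from 0.04 to 0.19 in M833. All 7 measured macrophage markers of 19 listed were lower in M833, with array means from -0.46 to -0.28 in WT and from -1.60 to -1.29 in M833. The fibroblast markers had 5 of 7 lower, with array means from -0.77 to -0.47 in WT and from -1.16 to -0.80 in M833. With the block 2 of these 5 were called, as were all 7 macrophage markers and 16 of the 17 cell cycle genes. Vim was above the reference in both, at 1.04 and 0.85, Col1a1 was near it, at 0.04 and -0.16, and Lum far below, at -2.41 and -2.57. All 4 measured skeletal muscle markers were higher in M833, with array means from -3.34 to -2.73 in WT and from -2.77 to -2.31 in M833. With the block 1 of the 4 was called, and 1 after scaling between arrays. Of 5 measured red cell markers 0 were called. The part of these states in the respiratory gene results was not tested.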

How the data were processed

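The deposited values are log2 ratios of sample and reference RNA, which the authors had normalised. The submitters' processing notes name limma, with no version. Background correction, normalisation method and filters, not given in the sources used here, stay unknown. The log base was inferred from the largest value, 15.35, and the direction from the titles and from globin transcripts far below the reference. Per the labels' protocols Trizol was used for extraction and dye-labelled dCTP for labelling. Array medians lay between -0.02 and 0.07. Array pairs correlated at 0.591 or more, and at 0.818 or more without WT replicate 2. That array held 49 values above 8, none in a member gene.

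Gene names come from GEO's platform table, whose symbols can be old, and probes of a gene were averaged (16 of the 66 genes). All 66 matched RefSeq by Entrez number. In addition, 3 probes with several symbols were left out.

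All 12761 features were fitted with limma 3.58.1 in R 4.3.3 (lmFit, eBayes) on 16 arrays, with cell type and dye as terms, after tests on simulated data. Means and SDs are dye-adjusted; array values are as deposited. The genes, lists and tests were chosen with earlier results of these data known. All called members are named with array values, and by rule the extremes of each role and up to 4 called genes of other lists. Alternatives covered centring, scaling, dye, moderation, array weights, probes, array sets and left-out arrays. Replicates were numbered in series order.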

Additional observations from a re-analysis of the deposited data

Results flagged for a closer look

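In 8 of the 132 groups of 8 arrays, 1 gene in 1 cell type each, a single array stood apart from the other 7 by Dixon's test on dye-adjusted log2 ratios, where chance gives about 1 in 20, or 6.6. The array that stood apart was replicate 7 of M833 in 2 groups and a different one in each of the other 6. In M833, Atp5a1, the F1 alpha subunit, was lowest in replicate 4, at -1.14, with the others from -1.03 to -0.97. Cox7b was highest in replicate 7, at 0.18, with the others from -0.42 to -0.16. Ndufa12 was also highest in replicate 7, at -0.056, with the others from -0.48 to -0.33. Ndufa10 was highest in replicate 2, at -0.37, with the others from -0.58 to -0.52, and Ndufv2 was highest in replicate 5, at -0.57, with the others from -0.86 to -0.75.

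In WT, Atp5pb was highest in replicate 8, at -0.36, with the others from -0.69 to -0.54. Ndufa10 was highest in replicate 5, at -0.49, with the others from -0.68 to -0.60, and Ndufs7 was highest in replicate 3, at -0.96, with the others from -1.07 to -1.02. Of these genes only Ndufa12 was called between the cell types, and its call held whichever single array was left out. The call was lost with the block, on the Cy5 arrays alone and after scaling between arrays. It was also lost without replicates 3, 4, 7 and 8 of WT and without those of M833.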

How the results depend on the processing

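No paired analysis was possible because the labels give no replicate numbers. The median difference over the 66 genes stayed between -0.10 and 0.01 under every alternative, and between -0.02 and 0.01 when 1 array was left out. Counts of called genes moved more, beside 5 higher and 10 lower in the first fit. The share of all features called moved too, from 10.0% higher and 15.9% lower, and is given after each pair of counts. Scaling between arrays gave 1 higher and 21 lower (9.91% and 16.8%). There were 1 and 3 with no dye term (6.11% and 9.56%), 0 and 3 on the Cy5 arrays alone (2.25% and 4.29%; by limma 2 higher at an unadjusted p under 0.05) and 1 and 3 on the Cy3 arrays alone (3.18% and 5.44%). With array sets as a random block 0 were higher (2 unadjusted) and 4 lower (4.40% and 7.08%), and with set means as replicates 0 were higher (1 unadjusted) and 0 lower (4 unadjusted), as were 0.00% of all features. Without M833 replicates 1, 2, 5 and 6 there were 1 and 5 (5.18% and 8.02%), without M833 replicates 3, 4, 7 and 8 there were 0 (8 unadjusted) and 6 (5.48% and 9.08%), and with replicates 3, 4, 7 and 8 of WT left out 11 genes rose and 11 fell (14.5% and 21.8%). At an unadjusted p under 0.05, in either direction, 3132 of 12761 features passed on the Cy5 arrays alone and 2944 with the block. With set means 1675 features passed so, and without M833 replicates 3, 4, 7 and 8 it was 3719. Leaving out 1 array gave 2 to 5 higher and 7 to 11 lower genes (8.73% to 9.91% and 13.8% to 16.1%). The 5 higher genes became 2 without M833 replicate 2 or 4, and 3 without M833 replicate 1, 3, 5, 7 or 8 or WT replicate 1, 5, 6 or 7. Centring, robust moderation, array weights, single probes, dropping extreme values and leaving out WT replicates 1, 2, 5 and 6 gave counts within 1.5 times. In these fits 9.84% to 13.8% of all features were higher and 12.8% to 20.1% lower. The single-probe fit kept the probe nearest the gene's first difference, and only 16 of the 66 genes had several probes. No value of the 66 genes was extreme (beyond 8). These 2 fits could therefore hardly change the counts and are no strong check. Of the 15 calls 14 were shared with centring, 11 with scaling and 4 with the block.

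The fitted difference changed sign under at least 1 alternative for 36 of the 66 genes, 35 of them not called in the first fit. It did so with a call in either fit for 3 genes: Ndufb5 under scaling, at -0.14 (limma, adjusted p = 0.0246), Sdha under scaling, at -0.014, and Cox6b2 without WT replicates 3, 4, 7 and 8, at 0.093. The cause was not tested. Without channel intensities, dim probes could not be told from bright ones.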
